A study of Mus musculus with 6 samples.

Results

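The 10 genes described here encode the calcineurin-NFAT signalling axis and its inhibitors: the kinase gene Dyrk1a, the 3 RCAN genes Rcan1, Rcan2 and Rcan3, the calcineurin catalytic subunit genes Ppp3ca and Ppp3cb, and the transcription factor genes Nfatc1, Nfatc2, Nfatc3 and Nfatc4. They were chosen by gene symbol from the deposited count table, and each matched 1 of its 55487 genes. Expression was measured by bulk poly(A) RNA-seq in 3 libraries labelled Ts1Cje and 3 labelled wild-type. All 6 came from mouse embryonic stem cells that had been differentiated for 4 days toward primitive macrophage progenitors with FGF2, BMP-4, activin A and VEGF. The Ts1Cje stem cells were established from Ts1Cje mice, which model Down syndrome: distal chromosome 16 is present in 3 copies, the additional one being joined to the end of another chromosome, where a few genes are known to be lost. The wild-type stem cells were established from wild-type mice, and the study asked why Ts1Cje embryos have fewer microglia. Samples are numbered by lot. The labels do not say whether lots are separate lines or cultures, so the p-values describe variation among these libraries, which may be technical, and genotype cannot be told apart from the stem cell lines that carry it.

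Calcineurin is a phosphatase switched on by calcium and calmodulin. It removes phosphate groups from the NFATc factors, which then enter the nucleus and act with partners such as AP-1. DYRK1A phosphorylates NFATc factors and primes them for further kinases that return them to the cytoplasm, while RCAN proteins bind calcineurin and inhibit it. NFATc factors are known for their part in heart valve, vessel, osteoclast and T cell development, and the triplication of both Dyrk1a and Rcan1 in Down syndrome has drawn attention to this axis.

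Library totals ran from 16577065 to 19010856 counts, and 17315 genes were tested. On the first principal component, which held 79.1% of the variance, the genotypes separated. Wild-type replicate 1 stood apart within its group, at -50 on that component against -72.4 and -73. Marker sums (CPM) moved with genotype as well. Those of 14 endothelium and endocardium genes ran from 586 to 689 in wild-type and 222 to 305 in Ts1Cje, with 1 gene rising and 10 falling of 13 tested. Those of 14 mesoderm and cardiac genes ran from 1569 to 1722 and 366 to 583, with 0 rising and 9 falling of 14. Those of 11 pluripotency and epiblast genes ran from 292 to 507 and 1615 to 2236, with 10 rising, and those of 13 endoderm genes from 371 to 444 and 1242 to 1632, with all 13 rising. The blood progenitor and macrophage sums of 14 genes ran from 167 to 244 and 229 to 248, with 4 rising and 3 falling of 9 tested. The similar sums thus hold opposite changes. Kit made up most of each Ts1Cje sum, at 147 to 186 CPM against 35.4 to 75.3 in wild-type. Tal1 ran from 68.3 to 92.4 CPM in wild-type and 3.73 to 11.4 in Ts1Cje. Tal1 (-3.56 ± 0.39), Gata2 (-2.58 ± 0.24) and Itga2b (-1.76 ± 0.28) fell, while Gata1 (2.78 ± 0.47), Kit (1.47 ± 0.30), Cd68 (0.80 ± 0.28) and the triplicated Runx1 rose. Cd68 passed narrowly (adjusted p = 0.0426 in the edgeR test). Its libraries overlapped, at 7.31 CPM in wild-type replicate 1 and 6.66 in Ts1Cje replicate 3. Of these 14, Ptprc and Cx3cr1 had 0 counts, and Spi1, Itgam and Adgre1 were too low to be tested. The sums of 7 neuroectoderm genes ran from 58.7 to 115 and 98.0 to 124, with 1 of 3 tested genes rising and the other genes too low to be tested. The part of these shifts in the results below was not tested, and in bulk samples fewer cells of a type and less RNA per cell cannot be told apart.

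All 10 genes passed the filter on low counts. The lowest count of any of them in any library was 33, for Rcan2 in wild-type replicate 2. With edgeR's quasi-likelihood test, adjusted over all genes tested, 5 rose in Ts1Cje (Dyrk1a, Rcan1, Rcan2, Rcan3 and Nfatc2), 3 fell (Nfatc4, Ppp3ca and Ppp3cb) and 2 did not pass (Nfatc1 and Nfatc3). Thus 8 of 10 were called, against 43.8% of all genes tested, 23.3% higher and 20.5% lower. In CPM, the libraries of the genotypes did not overlap for any of the 10 (5 higher and 5 lower in Ts1Cje), a pattern that 55.2% of tested genes showed, 28.8% higher and 26.4% lower. The median log2 fold change was 0.10 over the 10 genes and -0.01 over all genes tested. The median absolute log2 fold change was 0.95 against 0.35. Members were chosen with earlier results of these data known, so these comparisons with all genes tested are descriptions only. The genes of the RCAN inhibitors and of the opposing kinase DYRK1A rose, and so did Nfatc2, the NFATc gene with the lowest level. The catalytic subunit genes Ppp3ca and Ppp3cb fell, as did Nfatc4, the NFATc gene with the highest wild-type level. A further catalytic subunit gene, Ppp3cc, lies outside the 10 and did not pass.

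**Figure D1:**
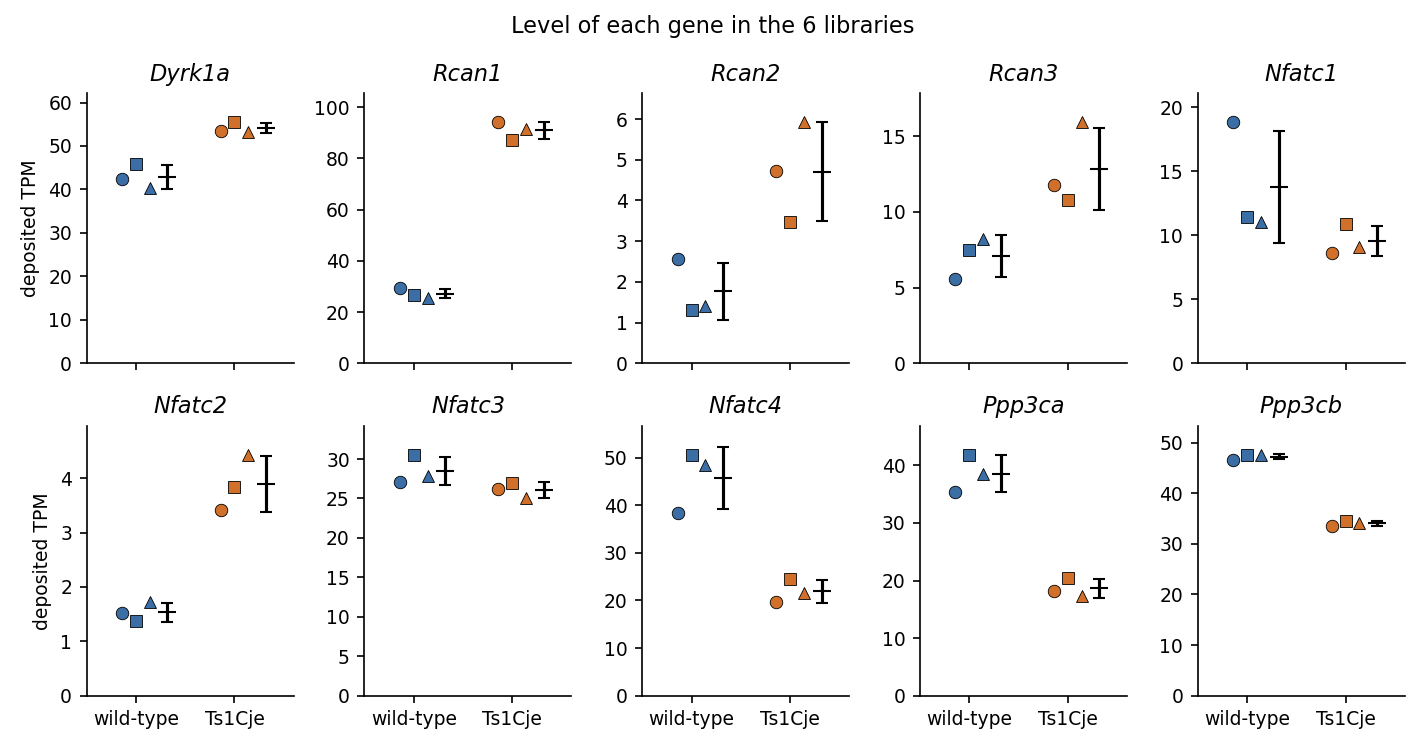
Deposited TPM (y axis) of the 10 genes in the 3 wild-type (blue) and 3 Ts1Cje (orange) libraries, with circles, squares and triangles for replicates 1, 2 and 3 and black bars for mean ± SD (n = 3). Rcan1 runs from 25.6 to 29.4 in wild-type and from 87.4 to 94.1 in Ts1Cje, while Nfatc3 nearly touches between the genotypes.

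Dyrk1a (ENSMUSG00000022897; mm10, chromosome 16, 94570010 to 94695517, plus strand) encodes the dual-specificity kinase that opposes NFAT. Its TPM, a level per transcript length, was 42.3, 45.8 and 40.4 in wild-type replicates 1 to 3 and 53.5, 55.4 and 53.3 in the Ts1Cje replicates. The Ts1Cje libraries were all higher and closer together than the wild-type ones. The log2 fold change was 0.33 ± 0.065 (SE; adjusted p = 0.00247), or 1.26-fold with a 95% interval of 1.14 to 1.39. This interval lies above no change and below the 1.5-fold of 3 copies against 2.

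Rcan1 (ENSMUSG00000022951; mm10, chromosome 16, 92391953 to 92470867, minus strand) lies 2099 kb before Dyrk1a in the same triplicated segment and encodes the best studied inhibitor of calcineurin. Its TPM was 29.4, 26.7 and 25.6 in wild-type replicates 1 to 3 and 94.1, 87.4 and 91.6 in the Ts1Cje replicates. The lowest Ts1Cje library was thus far above the highest wild-type one. The log2 fold change was 1.74 ± 0.08 (SE; adjusted p = 9.36e-07), or 3.33-fold with a 95% interval of 2.94 to 3.77, which lies above the 1.5-fold of the gene copies. The antisense gene Gm46555, which overlaps it on the other strand, had 16 counts over all libraries against 6154 for Rcan1.

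Rcan1 is known to be transcribed from alternative first exons, and the start nearer to the gene's end is known as a target of NFAT itself. Counts per gene do not separate the 5 protein-coding transcripts that GENCODE annotates for it, and its TPM rests on 1 length for all of them. The 250 bases before each of its 2 RefSeq starts (GRCm38.p6, minus strand, written 5′ to 3′), which lie 66.1 kb apart, are shown because they differ in the core motif that NFAT binds. Capitals mark GGAAA, or TTTCC where it lies on the other strand.
Distal start, chr16:92466170-92466419: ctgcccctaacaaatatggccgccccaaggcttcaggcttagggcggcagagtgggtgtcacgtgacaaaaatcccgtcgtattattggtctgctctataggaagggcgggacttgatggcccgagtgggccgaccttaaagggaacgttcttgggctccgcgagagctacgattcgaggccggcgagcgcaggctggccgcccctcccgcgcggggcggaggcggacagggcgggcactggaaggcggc
Proximal start, chr16:92400079-92400328: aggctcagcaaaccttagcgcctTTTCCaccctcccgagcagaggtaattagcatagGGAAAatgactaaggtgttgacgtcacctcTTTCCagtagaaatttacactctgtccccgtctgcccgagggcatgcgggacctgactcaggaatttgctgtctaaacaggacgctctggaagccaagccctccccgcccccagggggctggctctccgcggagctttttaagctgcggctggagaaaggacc
The proximal window held 3 matches, which begin 227, 193 and 163 bases before the start, and none of them overlap. The distal window held 0. GENCODE also places protein-coding starts of Rcan1 at 92458475 and 92470867, and no windows before these were scanned. Of 32851 RefSeq promoter windows of this length, 55.6% held at least 1 match on either strand and 6.39% at least 3. Among the 8 members with an entry (all but Nfatc1 and Ppp3ca), 1 window each of Nfatc2, Nfatc4 and Ppp3cb also held 3 matches. The windows of Nfatc4 and Ppp3cb belong to genes that fell and those of Rcan1 and Nfatc2 to genes that rose. A match is a run of letters and not a bound site.

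Among the 76 tested genes of the triplicated segment (chromosome 16, 90225680 to 97962622), Rcan1 was the 10th highest by fold change and Dyrk1a the 50th. The segment's median log2 fold change was 0.48, and its quartiles were 0.20 and 0.82. Rcan1 therefore stood above the upper quartile and Dyrk1a between the lower quartile and the median. The 95% interval lay above 1.5-fold for 19 of the 76 genes, below it for 20 and across it for 37.

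The nearest coding genes did not share 1 fold change. Before Rcan1 on the chromosome, the small membrane protein gene Smim11 rose by a log2 value of 0.96 ± 0.14 and Slc5a3, the inositol transporter gene, stood at 0.09 ± 0.13 (adjusted p = 0.610). After it, the chloride channel gene Clic6 rose by 2.86 ± 0.21 and Runx1, the blood transcription factor gene, by 1.80 ± 0.29. Before Dyrk1a, the endosomal sorting gene Vps26c rose by 0.63 ± 0.08 and Ttc3, a ubiquitin ligase gene, stood at 0.03 ± 0.07 (adjusted p = 0.745). After it, Kcnj6 (-1.88 ± 0.47) and Kcnj15 (-2.15 ± 0.68), which encode potassium channels, fell. Kcnj15 did not pass without wild-type replicate 1 (-1.17, adjusted p = 0.0815) or Ts1Cje replicate 1, 2 or 3 (0.0928, 0.0712 and 0.117) or with limma-voom or limma-trend, and Kcnj6 did not pass with limma-trend (adjusted p = 0.125). Kcnj6 and Kcnj15 were low in every library, with means of 1.72 and 2.75 CPM in wild-type.

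**Figure D2:**
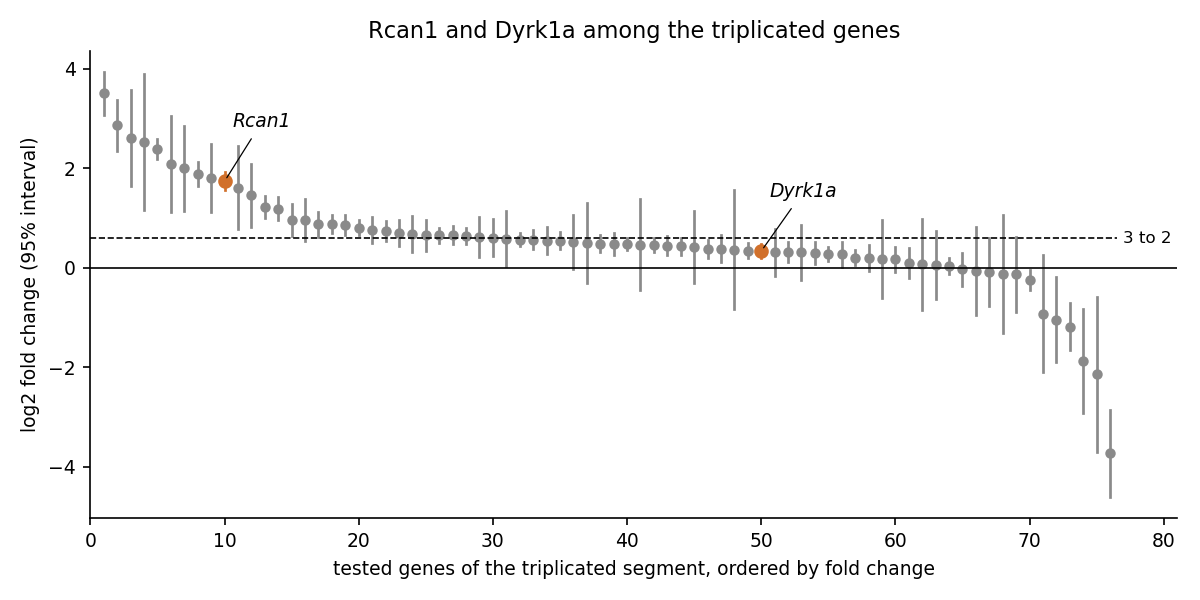
Log2 fold change, Ts1Cje over wild-type, with its 95% interval (y axis) for the 76 tested genes of the triplicated segment in order of fold change (x axis). The dashed line marks 3 copies against 2. Rcan1, 10th, lies above it with its whole interval, and Dyrk1a, 50th, below it.

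Rcan2 and Rcan3, the paralogues of Rcan1, encode calcineurin inhibitors of the same family and are not triplicated. They lie on chromosome 17 (43801351 to 44039516) and chromosome 4 (135412308 to 135433853). The TPM of Rcan2 was 2.56, 1.32 and 1.42 in wild-type replicates 1 to 3 and 4.72, 3.48 and 5.92 in the Ts1Cje replicates. Wild-type replicate 1 stood nearest to the Ts1Cje libraries. Rcan2 rose by a log2 value of 1.42 ± 0.31 (adjusted p = 0.00403). The TPM of Rcan3 was 5.56, 7.47 and 8.24 in wild-type and 11.8, 10.8 and 15.9 in Ts1Cje. Its highest library was Ts1Cje replicate 3, and the groups did not overlap. Rcan3 rose by 0.85 ± 0.20 (adjusted p = 0.00678). The tested genes within 5 Mb of Rcan2 and Rcan3 had median log2 fold changes of 0.05 and -0.05, so their neighbourhoods were not shifted as a whole.

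As a family, the RCAN genes summed to 36.1 ± 1.23 TPM in wild-type and 108.5 ± 6.15 in Ts1Cje (SD, n = 3 each), a ratio of 3.01. Rcan1 made up 75.4% ± 2.85 of this sum in wild-type and 83.9% ± 2.79 in Ts1Cje. Rcan3 made up 19.8% ± 4.41 and 11.8% ± 1.96, and Rcan2 4.85% ± 1.72 and 4.30% ± 0.90. Rcan1 was thus the main RCAN transcript in both genotypes.

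The calcineurin catalytic subunit genes Ppp3ca and Ppp3cb were lower in Ts1Cje. Ppp3ca (chromosome 3, 136670124 to 136937727) encodes the alpha isoform of the subunit that carries the phosphatase site. Its TPM was 35.4, 41.8 and 38.5 in wild-type replicates 1 to 3 and 18.2, 20.5 and 17.3 in the Ts1Cje replicates. Every Ts1Cje library lay far below every wild-type one. The log2 fold change was -1.06 ± 0.09 (adjusted p = 1.62e-05), or 2.08-fold lower. Ppp3cb (chromosome 14, 20499364 to 20546573) encodes the beta isoform. Its TPM was 46.6, 47.6 and 47.5 in wild-type and 33.6, 34.5 and 34.0 in Ts1Cje, which made it the member with the smallest spread within each group for its level. It fell by 0.48 on the log2 scale (SE 0.06, adjusted p = 0.000166), to 0.717 of its wild-type level. Ppp3cb overlaps 1810062O18Rik on the other strand, which had at most 203 counts in a library and stood at -0.14 ± 0.16 (adjusted p = 0.504). The tested genes within 5 Mb of Ppp3ca and of Ppp3cb had median log2 fold changes of 0.00 and -0.03.

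Of the remaining calcineurin subunits, Ppp3r2, a second regulatory subunit gene, was too low to be tested, and Ppp3cc and Ppp3r1 did not pass. Ppp3cc, the gamma catalytic isoform, stood at 5.68 ± 0.89 TPM in wild-type and 5.11 ± 0.33 in Ts1Cje (SD, n = 3 each; log2 fold change -0.16 ± 0.20, adjusted p = 0.551). Ppp3r1, the regulatory B subunit, stood at 59.3 ± 1.83 and 58.6 ± 4.16 TPM (-0.02 ± 0.08, adjusted p = 0.836). The catalytic genes together summed to 91.5 ± 2.81 TPM in wild-type and 57.8 ± 2.32 in Ts1Cje, 1.58-fold lower. The ratio of the RCAN sum to this catalytic sum was 0.424, 0.377 and 0.384 in wild-type replicates 1 to 3 and 1.95, 1.68 and 2.02 in the Ts1Cje replicates. In deposited TPM, the inhibitor sum was thus below the catalytic sum in each wild-type library and above it in each Ts1Cje library. Which sum is larger depends on the lengths behind the TPM, which are not given. The regulatory Ppp3r1 had a ratio to the catalytic sum of 0.65 ± 0.04 in wild-type and 1.02 ± 0.10 in Ts1Cje. These are ratios of transcript levels, and no protein was measured.

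**Figure D3:**
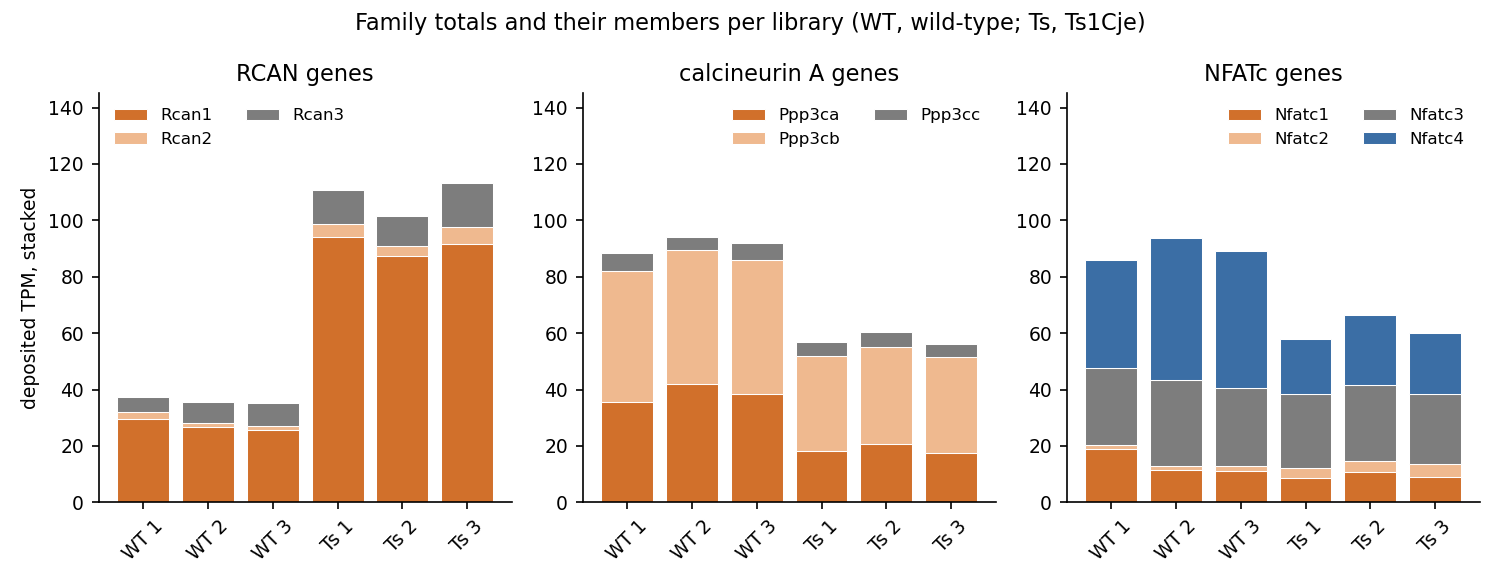
Deposited TPM stacked by gene (y axis) for the RCAN, calcineurin catalytic and NFATc genes in each wild-type (WT) and Ts1Cje (Ts) library (x axis). RCAN totals run from 35.3 to 37.5 in wild-type and 102 to 113 in Ts1Cje, while the catalytic and NFATc totals are lower in each Ts1Cje library than in each wild-type one.

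The NFATc genes did not move together. Nfatc4 (chromosome 14, 55823144 to 55833943), a member known from heart, vessel and nerve cells, had the highest NFATc level in wild-type. Its TPM was 38.3, 50.6 and 48.5 in wild-type replicates 1 to 3 and 19.6, 24.6 and 21.5 in the Ts1Cje replicates. It fell by 1.08 on the log2 scale (SE 0.13, adjusted p = 0.000133), or 2.11-fold. Nfatc2 (chromosome 2, 168476410 to 168601657), best known from T cells, had the lowest mean level of the 10 genes in both genotypes. Its TPM was 1.51, 1.37 and 1.72 in wild-type and 3.41, 3.84 and 4.43 in Ts1Cje. It rose by 1.33 ± 0.18 (adjusted p = 0.000223), and the tested genes within 5 Mb of it had a median of 0.04.

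Nfatc3 (chromosome 8, 106058840 to 106130537), a widely expressed member, had a TPM of 27.2, 30.5 and 27.9 in wild-type replicates 1 to 3 and 26.2, 27.0 and 25.01 in the Ts1Cje replicates. The highest Ts1Cje library lay just below the lowest wild-type one. Its log2 fold change was -0.14 ± 0.07 (95% interval -0.30 to 0.02, adjusted p = 0.147). Its end overlaps Esrp2 (106130319 to 106136974), a splicing factor gene on the other strand with 315 counts over wild-type and 1088 over Ts1Cje. Without a stated counting strand, reads in the shared part cannot be assigned to either gene with certainty. Nfatc3 had 10862 counts in all.

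Nfatc1 (chromosome 18, 80606205 to 80713071), which endocardium and osteoclasts require, had a TPM of 18.8, 11.4 and 11.1 in wild-type replicates 1 to 3 and 8.64, 10.9 and 9.08 in the Ts1Cje replicates. Wild-type replicate 1 stood above all other libraries, and the other wild-type libraries lay close to Ts1Cje replicate 2. The log2 fold change was -0.53 ± 0.20 (95% interval -0.98 to -0.09, adjusted p = 0.0546). It was -0.26 (adjusted p = 0.105) without wild-type replicate 1, and passed without wild-type replicate 2 (-0.65, adjusted p = 0.0404) or 3 (-0.66, adjusted p = 0.0321), with DESeq2 (adjusted p = 0.0201) and with no filter (adjusted p = 0.000122). The endothelium and endocardium sum was 586 CPM in wild-type replicate 1, against 636 and 689 in wild-type replicates 2 and 3. Kdr made up most of it, at 421, 434 and 472 CPM in wild-type replicates 1 to 3. In the same order, Etv2 stood at 57.4, 40.9 and 34.2 CPM and Pecam1 at 5.2, 18.1 and 20.9. Of this list, only Etv2 had its highest wild-type level in replicate 1. Kdr, Pecam1, Cdh5, Tie1, Tek, Fli1, Sox18, Erg, Esam, Icam2 and Npr3 had their lowest there, and Flt1 lay between. The pluripotency and epiblast sum was 507 CPM in wild-type replicate 1, against 293 and 292 in wild-type replicates 2 and 3. The part of these differences in the Nfatc1 level was not tested.

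Because of these different changes, the make-up of the NFATc transcripts differed between the genotypes. The family summed to 89.6 ± 4.06 TPM in wild-type and 61.4 ± 4.38 in Ts1Cje, 1.46-fold lower. Nfatc4 made up 51.0% ± 5.46 of it in wild-type and 35.6% ± 1.59 in Ts1Cje, and Nfatc3 31.8% ± 0.62 and 42.5% ± 2.41. The leading NFATc transcript was Nfatc4 in each wild-type library and Nfatc3 in each Ts1Cje library. Nfatc2 rose in share from 1.72% ± 0.24 to 6.35% ± 0.89, and Nfatc1 had a mean share of 15.5% in each genotype (SD 5.58 and 0.83). Its wild-type share was 21.9%, 12.2% and 12.4% in replicates 1 to 3, and without replicate 1 its mean of 12.3% lay below the 14.9% to 16.5% of the Ts1Cje libraries. The ratio of the NFATc sum to the calcineurin catalytic sum was 0.98 ± 0.02 in wild-type and 1.06 ± 0.04 in Ts1Cje.

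**Figure D4:**
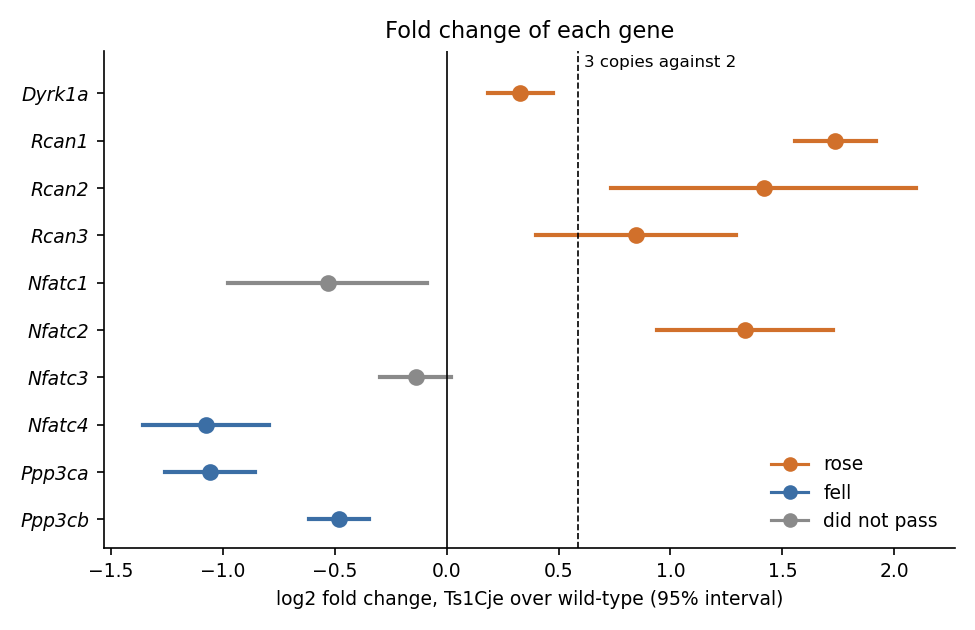
Log2 fold change, Ts1Cje over wild-type, with its 95% interval (x axis) for the 10 genes (y axis), orange where they rose, blue where they fell and grey where they did not pass. The dashed line marks 3 copies against 2. Rcan1 lies right of it, Dyrk1a left of it, and Nfatc4 and Ppp3ca near -1.

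By level in TPM, the order in wild-type was Ppp3cb, Nfatc4, Dyrk1a and Ppp3ca, then Nfatc3 and Rcan1, then Nfatc1, Rcan3, Rcan2 and Nfatc2. Neighbours within the first 4 overlapped in their libraries' ranges, as did Nfatc3 with Rcan1 and Rcan2 with Nfatc2. In Ts1Cje the order was Rcan1, Dyrk1a, Ppp3cb, Nfatc3, Nfatc4, Ppp3ca, Rcan3, Nfatc1, Rcan2 and Nfatc2. Here the overlapping neighbours were Nfatc4 with Ppp3ca, Rcan3 with Nfatc1, and Rcan2 with Nfatc2. Rcan1 moved from the 6th place of the 10 to the first, and from the 63.4th to the 88.4th percentile of mean TPM among all genes tested.

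Over the 6 libraries, the genes most like Rcan1 by Pearson's r of log2 CPM were the autophagy gene Map1lc3b (r = 0.9999), the transmembrane BMP regulator gene Crim1 (r = 0.9995) and the anion exchanger gene Slc4a2 (r = 0.9995). Map1lc3b rose from 90.6 ± 3.73 to 202.5 ± 6.21 CPM, Crim1 from 18.6 ± 2.17 to 151 ± 16.5 and Slc4a2 from 58.0 ± 0.68 to 137 ± 5.31 (SD, n = 3 each). The libraries fall into the 2 genotypes, which every such r shares. Of 17314 genes, 2003 had an r above 0.95 with Rcan1 and 398 above 0.99, and 590 and 19 did so with Dyrk1a. Among the members, r with Rcan1 ran from 0.843 (Rcan3) to 0.968 (Nfatc2) for those that rose, was -0.973, -0.990 and -0.997 for Nfatc4, Ppp3ca and Ppp3cb, and was -0.685 for Nfatc1 and -0.756 for Nfatc3. Nearest to Dyrk1a were 1700030C12Rik (r = 0.998), Gm40709 (0.997) and Gm4316 (0.996), of which Gm40709 and Gm4316 had mean levels under 1 CPM in both genotypes.

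The other genes of the pathway were described from 6 lists. Their medians are set beside the -0.01 of all genes tested, and their counts beside the 23.3% higher and 20.5% lower. Of 13 other calcineurin subunits and regulators, 9 were tested, and 2 rose and 1 fell (median log2 fold change -0.02). Cabin1, which encodes another calcineurin inhibitor, rose by 0.29 ± 0.07. Calm2, a calmodulin gene, fell by 0.18 on the log2 scale (SE 0.06, adjusted p = 0.0458). Calm2 did not pass, and 0 genes of this list fell, with DESeq2, with a filter at a mean log2 CPM of at least 1, or with replicate 2 or 3 of either genotype omitted. The immunophilin genes Fkbp1a and Ppia, whose products bind the drugs that block calcineurin, stood at -0.06 ± 0.06 and -0.15 ± 0.07 and did not pass.

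Of 12 NFAT kinases and DYRK family genes, 11 were tested, and 2 rose and 4 fell (median -0.12). The casein kinase genes Csnk1a1 (-0.33 ± 0.06) and Csnk1e (-0.33 ± 0.07), the JNK gene Mapk8 (-0.40 ± 0.08) and Dyrk2 (-0.37 ± 0.07) fell by less than 2-fold. Dyrk3 rose by 0.52 ± 0.12. Lrrk2, which encodes a kinase linked to NFAT retention, rose by 1.09 ± 0.25 from a low level of 0.72 ± 0.18 to 1.52 ± 0.28 TPM, and did not pass with limma-trend (adjusted p = 0.0661). Gsk3a and Gsk3b, the kinases that act after DYRK1A, stood at -0.003 ± 0.061 and -0.11 ± 0.06 and did not pass.

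The 14 genes of calcium entry and release, upstream of calcineurin, were all tested, and 5 rose and 5 fell (median -0.24). The inositol trisphosphate receptors, which release calcium from the endoplasmic reticulum, went different ways. Itpr1 fell from 42.9 ± 5.19 to 15.9 ± 2.71 TPM (-1.44 ± 0.12) and Itpr2 from 9.93 ± 2.60 to 2.61 ± 0.61 (-1.94 ± 0.24), while Itpr3 rose from 20.1 ± 0.42 to 46.8 ± 8.49 (1.21 ± 0.12). Among the phospholipase C genes, which make the messenger that opens these receptors, Plcg2 (1.69 ± 0.13), Plcb3 (0.98 ± 0.08) and Plcb4 (0.97 ± 0.14) rose, and Plcg1 (-0.79 ± 0.09) and Plcb2 (-2.98 ± 0.40) fell. Stim1, the calcium sensor of the store, rose from 5.35 ± 0.93 to 12.3 ± 0.91 TPM (1.198 ± 0.125). Stim2, the other sensor, fell by 0.35 (SE 0.13, adjusted p = 0.0471), and did not pass with wild-type replicate 1 (0.114) or 2 (0.0907) omitted, nor with Ts1Cje replicate 1 (0.150) or 3 (0.107) omitted. The channel genes Orai1, Orai2 and Orai3 stood at -0.14 ± 0.15, -0.35 ± 0.24 and 0.13 ± 0.11 and did not pass.

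Of 16 genes of NFAT partners and relatives, 15 were tested, and 2 rose and 5 fell (median -0.22). Jund, an AP-1 subunit gene, rose from 74.5 ± 9.61 to 247 ± 23.9 TPM (1.72 ± 0.10). Mef2c, a muscle and vessel factor gene, fell by 2.70 on the log2 scale (SE 0.38), Homer2, whose product is known to compete with calcineurin for NFAT, by 1.25 (SE 0.17), and Batf3 by 1.57 (SE 0.56, adjusted p = 0.0438). Batf3 did not pass with wild-type replicate 2 (adjusted p = 0.195) or 3 (0.0620) omitted, with Ts1Cje replicate 2 (0.136) or 3 (0.141) omitted, nor with DESeq2 (0.0716) or limma-trend (0.0632), and stood at -2.28 without Ts1Cje replicate 1. Mef2d, a factor gene of the same family as Mef2c, rose by 0.22 (SE 0.08, adjusted p = 0.0464), and did not pass with any single wild-type library omitted, nor with Ts1Cje replicate 1 or 3 omitted (adjusted p of 0.0754 to 0.184). In these fits other than that without Ts1Cje replicate 1, 1 gene of the list rose in place of 2. Nfat5, the relative that calcineurin does not control, fell by 0.75 (SE 0.07). In level, Homer2 fell from 4.85 ± 0.88 to 2.06 ± 0.24 TPM, and its relative Homer1 also fell, by 0.36 (SE 0.08). Homer3, at a higher level, stood at 60.8 ± 1.2 TPM in wild-type and 61.8 ± 7.7 in Ts1Cje. Its log2 fold change was 0.02 ± 0.09 (adjusted p = 0.904) and did not pass. Fos, Fosb, Fosl1, Fosl2, Jun and Junb did not pass.

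Of 22 known NFAT target genes, most of them from T cells and osteoclasts, 11 were tested, and 3 rose and 3 fell (median -0.57). Ifng, Csf2, Cd40lg, Ctla4 and Dcstamp had 0 counts. Acp5, the osteoclast acid phosphatase gene, rose from 1.62 ± 0.95 to 18.8 ± 3.50 TPM (3.53 ± 0.34) and the calcitonin receptor gene Calcr from 0.18 ± 0.08 to 3.03 ± 0.78 (4.04 ± 0.41). Nr4a3, a nuclear receptor gene, rose by 2.36 ± 0.56 from 12 counts over wild-type to 62 over Ts1Cje. Its relative Nr4a1 (-0.49 ± 0.16), the cyclooxygenase gene Ptgs2 (-2.09 ± 0.59) and the integrin gene Itgb3 (-1.498 ± 0.438) fell. Ptgs2 stood at -3.45 without Ts1Cje replicate 1 and Nr4a3 at 3.31 without wild-type replicate 1. Nr4a1 did not pass without replicate 1 (adjusted p = 0.0744) or 2 (0.0534) of the wild-type, or replicate 1 (0.0533) or 3 (0.1102) of Ts1Cje. Ptgs2 lost its call without Ts1Cje replicate 2 (adjusted p = 0.0631) or 3 (0.0568) or wild-type replicate 3 (0.0518), and Itgb3 without wild-type replicate 2 (0.0698) or Ts1Cje replicate 1 (0.0729) or 2 (0.0545). When wild-type replicate 2 or a single Ts1Cje library was omitted, 1 gene of the list fell in place of 3. Rcan1 itself, also a known NFAT target, was not counted in this list. Egr2 and Egr3, immediate early targets, stood at -0.62 ± 0.41 and -0.73 ± 0.63 and did not pass.

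**Figure D5:**
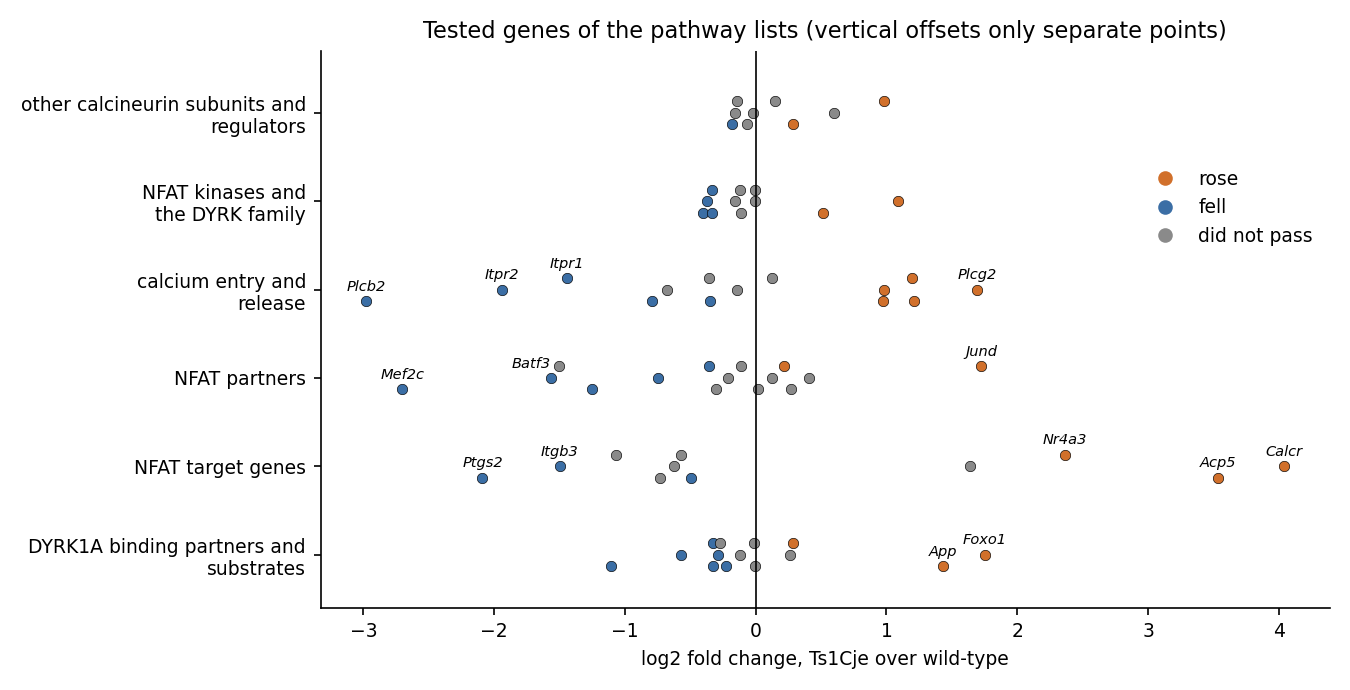
Log2 fold change, Ts1Cje over wild-type (x axis), of the tested genes in each of the 6 pathway lists (y axis), orange where they rose, blue where they fell and grey where they did not pass. Each list holds genes on both sides of 0, and the widest spread is among the NFAT target genes, from Ptgs2 at -2.09 to Calcr at 4.04.

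The 14 binding partners and substrates of DYRK1A were all tested, and 3 rose and 6 fell (median -0.18). Dcaf7, the main scaffold partner of DYRK1A, fell from 95.9 ± 1.31 to 76.8 ± 4.83 TPM (-0.33 ± 0.06), and Fam53c, another binding partner, rose by 0.28 ± 0.07. Ccnd1, the cyclin D1 gene whose product DYRK1A marks for degradation, fell from 149 ± 16.2 to 69.6 ± 16.6 TPM (-1.11 ± 0.19), and Ccnd3 fell by 0.58 (SE 0.09). Foxo1 rose by 1.75 ± 0.13. App, the amyloid precursor gene, rose from 23.1 ± 1.43 to 62.9 ± 4.47 TPM (1.44 ± 0.08). App lies on chromosome 16 (84949685 to 85173766), 5052 kb before the triplicated segment, and is outside it. Lin52, the DREAM complex subunit that DYRK1A phosphorylates, stood at -0.01 ± 0.15 and Cdkn1b at -0.01 ± 0.16, and neither passed.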

How the data were processed

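Deposited were raw counts of reads for 55487 Ensembl genes in 6 libraries, and TPM of these genes as a second deposited table. Per the submitters' processing notes, featureCounts 1.6.3, HISAT2 2.1.0, Trimmomatic 0.38 and FastQC 0.11.7 were used with mm10. The sources used here do not give settings, counting strand or the lengths behind the TPM. Per the labels' protocols, the libraries were poly(A)-selected and directional.

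Counts were tested in R 4.3.3 with edgeR 4.0.16 (filterByExpr, minimum count 10 and total 15; TMM; robust quasi-likelihood fit on genotype; Benjamini-Hochberg over the 17315 genes kept; threshold 0.05). Fold changes are Ts1Cje over wild-type. SEs and 95% intervals were derived from the F statistic and are approximate. CPM carry TMM scaling. Levels between genes are compared in TPM, which has no test. Library totals of 16577065 to 19010856 limit the precision of genes with few counts, and no molecular identifiers were stated. The fit was also run on simulated counts with few changed genes. This does not measure its error rates in these data, where 43.8% of tested genes were called. DESeq2 1.42.0 and limma 3.58.1 served as alternatives, beside other scaling and filters, leaving out each library, and lot as a block.

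Group and lot came from the labels. Members and lists were chosen with earlier results of these data known. The text names all members; in each list, genes called with an absolute log2 fold change of at least 1 or else the 2 with the smallest adjusted p, with further list genes chosen after their values were seen; the 2 nearest tested coding genes on each side of Rcan1 and Dyrk1a; and the 3 genes most like each. The segment runs from the gene after Sod1 to Zbtb21. Some list genes that the rule names are not reported here. Medians within 5 Mb were added after the data were seen.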

Additional observations from a re-analysis of the deposited data

How the results depend on the processing

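Rcan1, Rcan2, Rcan3, Dyrk1a, Nfatc2, Nfatc4, Ppp3ca and Ppp3cb kept their direction and call under all 15 alternatives (each library left out, DESeq2, limma-voom, limma-trend on TPM with a pseudocount of 1 or 0.1, DESeq2 or upper-quartile factors, no filter, a mean log2 CPM of at least 1, and the replicate block). The log2 fold change ran from 0.30 to 0.38 for Dyrk1a and from 1.70 to 1.77 for Rcan1. The count of members called was 8 or 9, the ninth being Nfatc1. The count of all genes called ran from 6039 to 8042 on leaving out a library and was 8265 with no filter.

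Lot numbers were shared by the genotypes. Deviations from the group means of same-numbered libraries correlated at 0.219, 0.059 and 0.202 for replicates 1, 2 and 3, so the numbers were not taken to pair the samples, although every library correlated best with its own number. With the replicate block, 8326 genes and 8 members were called, Batf3 did not pass (adjusted p = 0.0544), and of the other calcineurin subunits and regulators 4 rose and 2 fell.

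Among the neighbouring genes that did not pass, Slc5a3 ran from -0.057 (without Ts1Cje replicate 2) to 0.229 (without Ts1Cje replicate 1) on leaving out a library, and Ttc3 from -0.024 (without Ts1Cje replicate 2) to 0.080 (without Ts1Cje replicate 1), with -0.022 without wild-type replicate 1. The cause was not tested. Counts of the lists rest on few genes. NFAT partners that rose numbered 1 in place of 2 also with DESeq2, both other scalings, limma-voom and limma-trend, and NFAT targets that fell numbered 1 or 0 in place of 3 with limma-trend or the stricter filter. Levels below 1 TPM, such as those of Nr4a3 or Calcr in wild-type, rest on few reads.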
